A study of Homo sapiens with 12 samples.

Results

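The genes described here encode the cytosolic translation elongation factors and 1 kinase that acts on them: EEF1A1, EEF1A2, EEF1B2, EEF1D, EEF1G, EEF2, EEF2K, EIF5A and EIF5A2. They were taken by symbol, and all 9 were listed among the 44659 genes of the count table. The set was chosen by a measured value, the share of reads taken by EEF1A1, which differed between the groups, so EEF1A1 is described without a test, and the other 8 genes were tested within a fit across all genes. All 9 had a mean scaled count of at least 10 over the 12 libraries, the minimum for entering that fit, as did 15916 genes in all.

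The cells were A375, a human skin melanoma line with an activating BRAF mutation, in 4 groups of 3 libraries. Control cells (CC) were given DMSO for 72 h. The treated cells (TC) were given 500 nM vemurafenib, which inhibits BRAF, plus 500 nM cobimetinib, which inhibits MEK (together MAPKi), over the same 72 h and were collected with no time off drug. Persister cells (PC) were treated alike and then kept 2 days off drug, and recovered cells (RC) 9 days off drug. All groups were grown in the same medium with added serum and glutamine, and per the labels cytoplasmic RNA depleted of ribosomal RNA was sequenced, while the study's methods name total RNA. Vehicle cells grown for the additional 2 or 9 days were not analysed here, so for PC and RC the added time in culture and the withdrawal of drug cannot be told apart. TC, PC and RC each came from their own batch of plated cells (A, B and C), so batch and harvest time cannot be told apart either. The labels use the same 3 replicate numbers in all 4 groups without saying what a number marks. The fit did not pair libraries by number, so the p-values measure the spread between these libraries. Total counts ran from 37773389 to 55567097 per library. Levels are given as CPM, the counts of a gene per 1000000 counts of the normalized library size. Of the melanocyte lineage markers, SOX10 (mean 659 CPM in CC), MITF (362), DCT (407) and S100B (264) were detected, whereas MLANA (0.55) and TYR (2.09) were low. The means of the lineage markers differed between the groups. DCT averaged 6452 CPM in TC, 2601 in PC and 421 in RC. PMEL averaged 70.1 in CC, 615 in TC, 289 in PC and 39.6 in RC. In TC, PC and RC, SOX10 averaged 1046, 939 and 553 CPM, MITF 321, 221 and 348, and S100B 140, 272 and 204. MLANA averaged 1.51, 1.58 and 0.523 there, and TYR 4.87, 3.24 and 1.47. S100A1 averaged 138 CPM in CC, 146 in TC, 168 in PC and 106 in RC. Their part in the results was not tested. The 6 markers of other cell types summed to 0.783 to 1.38 CPM in CC, 1.02 to 1.72 in TC, 4.45 to 6.996 in PC and 0.965 to 1.77 in RC. KRT5, DCN and PECAM1 had 4 counts or fewer in every library, and KRT14 and COL1A1 had mean levels of 2.29 and 3.57 CPM in PC. The part of such cells in the results was not tested.

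During elongation, eEF1A carries aminoacyl-tRNA to the ribosome as a complex with GTP, and a nucleotide exchange complex, built from the products of EEF1B2, EEF1D and EEF1G, recharges it. eEF2 then moves the ribosome along the messenger RNA by a codon, and the kinase eEF2K inactivates eEF2 by phosphorylation. eIF5A, which carries the unusual amino acid hypusine, helps the ribosome past stretches that are slow to form peptide bonds. Many of these messenger RNAs, like those of ribosomal proteins, begin with a C followed by a run of pyrimidines (a TOP tract), through which mTOR signaling is known to control their translation.

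The bases around the annotated transcription starts are shown to tell apart the genes that begin with such a tract. They were read from RefSeq promoter sequences (GRCh38.p14), 10 bases before and 20 bases from the start, on the transcribed strand, with the first 5 transcribed bases in capitals.
EEF1A1: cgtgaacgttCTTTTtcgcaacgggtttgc
EEF2: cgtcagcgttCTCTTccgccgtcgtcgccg
EEF1B2 (start 2): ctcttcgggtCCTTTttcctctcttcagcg
EEF1B2 (start 1): aagtggccccAGCCTcgaggccgggcgtct
EEF1G: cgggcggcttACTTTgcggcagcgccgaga
EIF5A2: cccgtctcttGGAACtgccgcggccgccac
EEF2K: gcccgcttctGCTCAacctagaccagcccc
These windows lie at chr6:73521013-73521042 (minus strand) for EEF1A1, chr19:3985444-3985473 (minus) for EEF2, chr2:206159885-206159914 and chr2:206159599-206159628 (plus) for EEF1B2, chr11:62573872-62573901 (minus) for EEF1G, chr3:170908618-170908647 (minus) for EIF5A2 and chr16:22206268-22206297 (plus) for EEF2K.

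A C at the annotated start followed by 4 bases that are each C or T was found for 3 of the 7 factor genes with a start sequence, namely EEF1A1, EEF2 and EEF1B2 (at 1 of its 2 starts). The same motif, searched on the transcribed strand only, was found at a start of 5.14% of all 27305 genes with promoter sequences, of 47 of 63 cytosolic ribosomal protein genes and of 5 of 5 other known TOP genes. None of the 6 annotated starts of EIF5A held it. When the motif could begin up to 10 bases on either side of the start, 5 of the 7 genes and 38.4% of all genes had it, whereas EEF1G and EIF5A did not. EEF1A2 and EEF1D had no entry. A match describes the letters at an annotated start and not the start used in these cells.

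EEF1A1, which encodes the main eEF1A of most tissues, was the most or second most counted gene in each of the 12 libraries. Its share of all counts was 1.56%, 1.51% and 1.37% (CC), 1.66%, 1.68% and 1.63% (TC), 2.03%, 2.06% and 2.05% (PC), and 0.984%, 1.01% and 1.05% (RC). The 4 groups did not overlap, with RC lowest, then CC, TC and PC. In CPM, EEF1A1 averaged 14823 ± 965 over the CC libraries, 16777 ± 277 over TC, 20468 ± 383 over PC and 10005 ± 331 over RC (mean ± SD, n = 3). Relative to CC the fitted log2 difference was 0.18 in TC, 0.47 in PC and -0.57 in RC, and from PC to RC the level was 0.489 times as high (log2 -1.03). These EEF1A1 values chose the gene set and are given without a test.

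Other features of the libraries moved with the group as well. Mitochondrially encoded transcripts took 1.31% to 2.15% of the counts in CC, 2.73% to 3.26% in TC, 2.04% to 2.59% in PC and 1.26% to 1.32% in RC. Their part in the EEF1A1 shares was not tested. Counts are relative to the library total, and in bulk RNA fewer cells expressing a gene and less RNA per cell cannot be told apart.

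EEF1A2 encodes the second eEF1A, known from muscle, nerve and some tumors. Its levels were 361, 322 and 341 CPM (CC), 215, 210 and 191 (TC), 124, 118 and 115 (PC), and 195, 200 and 199 (RC). Every library of TC, PC and RC was below every CC library, and the PC libraries were the lowest. EEF1A2 fell in TC by 0.73 on the log2 scale (SE 0.06, edgeR quasi-likelihood test, adjusted p = 6.4e-07), in PC by 1.52 (SE 0.06, adjusted p = 1.4e-09) and in RC by 0.79 (SE 0.06, adjusted p = 1.3e-05). It was also lower in PC than in TC (log2 -0.79, SE 0.06, adjusted p = 5.9e-06) and higher in RC than in PC (log2 0.73, SE 0.06, adjusted p = 5.8e-07). The stricter test, for a change beyond 1.5-fold (edgeR's glmTreat), was also passed in all 5 comparisons. It held for PC against CC and for RC against PC whichever library was left out. It was lost for TC against CC without CC replicate 1 or TC replicate 3 (adjusted p = 0.057 and 0.069, from 0.015), for RC against CC without CC replicate 1 or any RC library (0.070 to 0.11, from 0.027) and for PC against TC without TC replicate 1, TC replicate 2, PC replicate 2, PC replicate 3 or RC replicate 2 (0.052 to 0.13, from 0.027). With DESeq2 in place of edgeR, the 1.5-fold call was lost for TC against CC (adjusted p = 0.11) and RC against CC (0.091). DESeq2 also lost it for PC against TC and RC against PC (0.12 for each). Library totals as the scaling lost it for RC against CC and PC against TC (0.078 and 0.067). Keeping genes with a summed count of at least 2 lost it for TC and RC against CC (0.0502 and 0.068). Fitting only the 2 groups did so as well (0.063 and 0.078).

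The EEF1A1 and EEF1A2 coding sequences were 78.1% identical over 1386 aligned bases, and the longest stretch shared by their reference transcripts was 20 bases, against sequenced reads of 150 bases. The count of EEF1A1 per count of EEF1A2 was 43.5 ± 3.5 in CC, 81.9 ± 5.9 in TC, 172 ± 9 in PC and 50.6 ± 1.2 in RC (mean ± SD, n = 3). These ratios contain EEF1A1 and are descriptive. Per kilobase of the reference (MANE Select) transcript, the CC levels were 4221 CPM for EEF1A1, 1692 for EEF2, 1240 for EEF1G and 193 for EEF1A2.

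**Figure D1:**
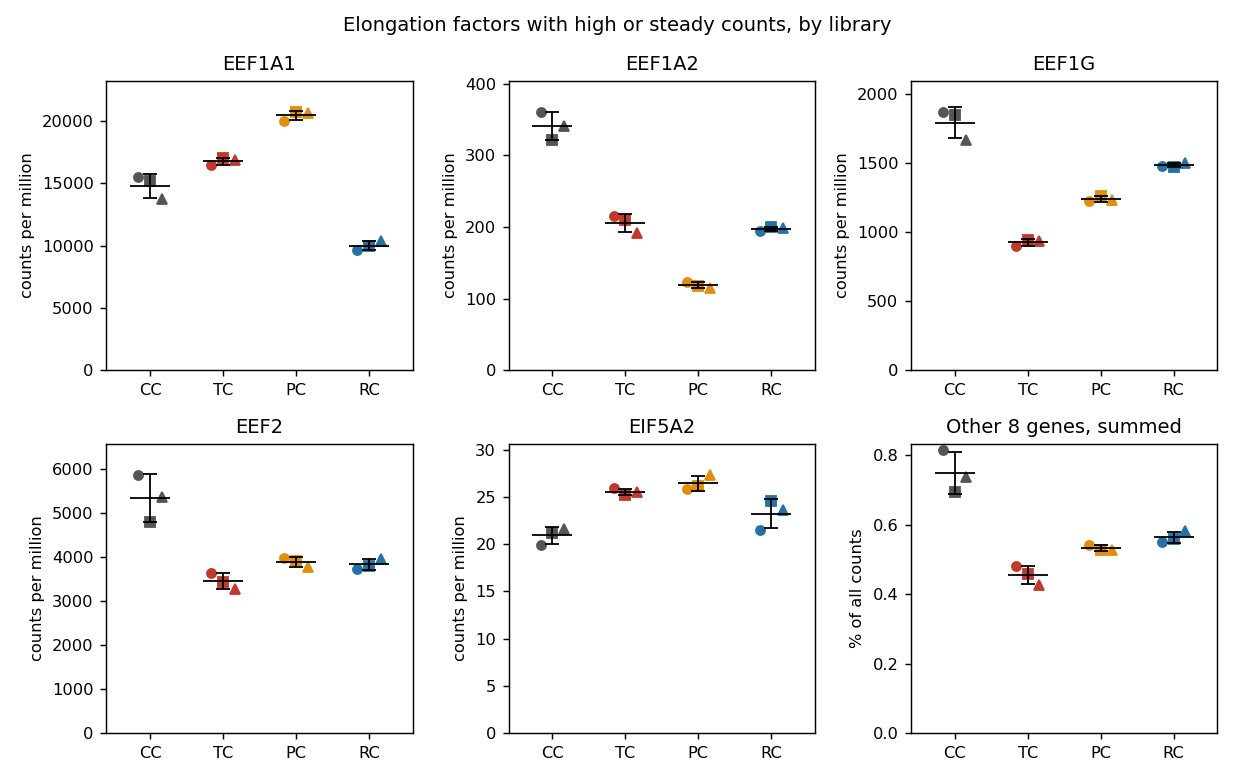
Levels of EEF1A1, EEF1A2, EEF1G, EEF2 and EIF5A2 in CPM, and the summed share of all counts of the 8 genes other than EEF1A1, in each of 12 libraries (circle, square and triangle are replicates 1, 2 and 3; black bars are the mean and SD of 3 libraries). EEF1A1 was highest in PC and lowest in RC, whereas the EEF1A2, EEF1G and EEF2 libraries of CC lay above those of the other groups.

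EEF1G encodes the gamma subunit, the scaffold of the exchange complex. It was counted at 1868, 1846 and 1663 CPM (CC), 896, 944 and 936 (TC), 1227, 1263 and 1229 (PC), and 1475, 1474 and 1501 (RC). The 4 groups did not overlap, and TC was lowest. EEF1G fell in TC by 0.95 on the log2 scale (SE 0.05, edgeR adjusted p = 1.8e-08), to 0.516 times the CC level, and this change exceeded 1.5-fold (adjusted p = 1.4e-05). It was lower than in CC by a smaller amount in PC (log2 -0.53, SE 0.05, adjusted p = 2.7e-06) and in RC (log2 -0.27, SE 0.05, adjusted p = 0.0022). Between the time points it rose from TC to PC (log2 0.42, SE 0.05, adjusted p = 0.00019) and from PC to RC (log2 0.26, SE 0.05, adjusted p = 0.0010).

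EEF2, the translocation factor, was counted at 5868, 4791 and 5366 CPM (CC), 3635, 3436 and 3277 (TC), 3974, 3902 and 3762 (PC), and 3729, 3799 and 3960 (RC). All CC libraries lay above all others. EEF2 fell in TC by 0.63 on the log2 scale (SE 0.07, edgeR adjusted p = 6.1e-06), in PC by 0.46 (SE 0.07, adjusted p = 8.3e-05) and in RC by 0.48 (SE 0.07, adjusted p = 0.00032). None of these 3 differences passed the test for a change beyond 1.5-fold. That of TC passed it (adjusted p = 0.032) when CC replicate 2 was left out. From TC to PC the log2 difference was 0.17 (SE 0.07, adjusted p = 0.10), and it passed the threshold (adjusted p = 0.038) when CC replicate 2 was left out. From PC to RC it was -0.02 (SE 0.07, adjusted p = 0.83), and the libraries overlapped.

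**Figure D2:**
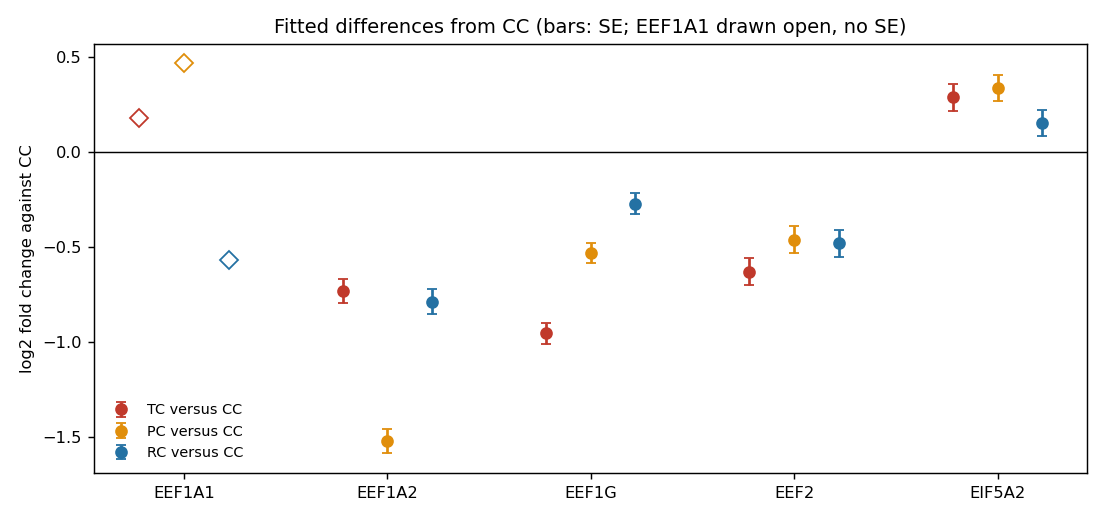
Fitted log2 fold changes against CC for 5 factor genes in TC (red), PC (orange) and RC (blue). Bars are standard errors, and EEF1A1 is drawn open without an error because its level chose the gene set. EEF1A2, EEF1G and EEF2 lie below 0 in all 3 groups, EIF5A2 above 0, and EEF1A1 above 0 in TC and PC (0.18 and 0.47) and below 0 in RC (-0.57).

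EEF1A1 and its partners thus stood in different proportions in the groups. There were 8.27 ± 0.05 counts of EEF1A1 per count of EEF1G in CC, 18.1 ± 0.2 in TC, 16.5 ± 0.3 in PC and 6.74 ± 0.16 in RC (mean ± SD, n = 3). Per count of EEF2 there were 2.79 ± 0.33 in CC, 4.87 ± 0.31 in TC, 5.28 ± 0.23 in PC and 2.61 ± 0.01 in RC. The ratio to EEF1G separated all 4 groups, and the ratio to EEF2 separated TC and PC from CC and RC. These ratios do not depend on library size, and like the share they contain EEF1A1 and carry no test. Summed, the 9 genes took 2.23% ± 0.14 of all counts in CC, 2.11% ± 0.05 in TC, 2.58% ± 0.01 in PC and 1.58% ± 0.05 in RC. Without EEF1A1, the sum was 0.749% ± 0.061 in CC, 0.456% ± 0.027 in TC, 0.532% ± 0.009 in PC and 0.564% ± 0.015 in RC, with every CC library above every other.

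**Figure D3:**
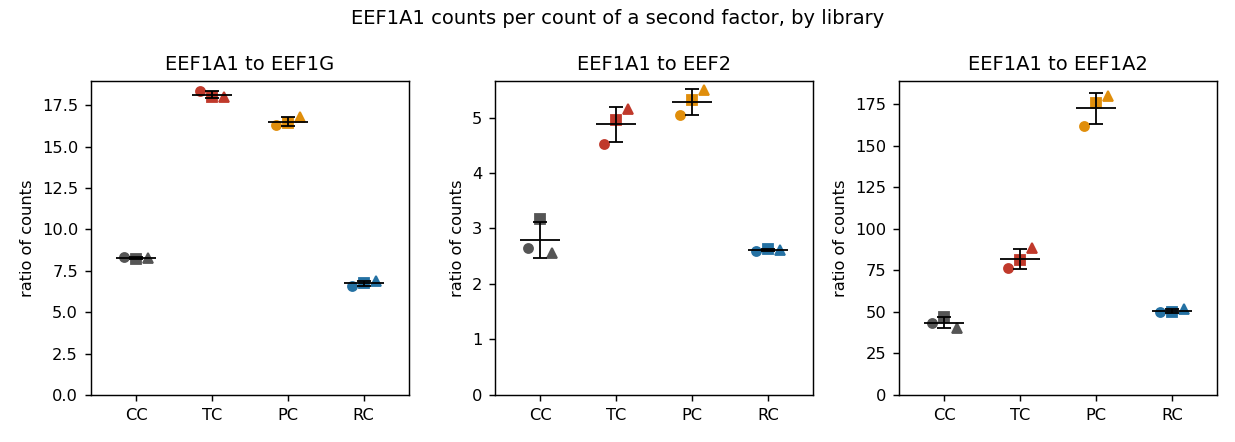
Counts of EEF1A1 per count of EEF1G, EEF2 and EEF1A2 in each of 12 libraries (circle, square and triangle are replicates 1, 2 and 3; black bars are the mean and SD of 3 libraries). The ratio to EEF1G was 8.23 to 8.32 in CC and 18.0 to 18.4 in TC, and that to EEF1A2 was highest in PC (162 to 180).

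EIF5A2 encodes the less widely expressed eIF5A. It was counted at 19.96, 21.2 and 21.6 CPM (CC), 25.9, 25.2 and 25.5 (TC), 25.8, 26.2 and 27.4 (PC), and 21.6, 24.6 and 23.6 (RC). All TC and PC libraries were above all CC libraries, whereas RC overlapped CC. EIF5A2 rose in TC (log2 0.29, SE 0.07, edgeR adjusted p = 0.0029) and in PC (log2 0.34, SE 0.07, adjusted p = 0.00092), in each case by less than 1.5-fold. In RC its difference from CC was 0.15 (SE 0.07, adjusted p = 0.11). From PC to RC it fell by 0.19 (SE 0.07, adjusted p = 0.030), a call that was lost without PC replicate 2, PC replicate 3, RC replicate 1 or RC replicate 3 (adjusted p from 0.053 to 0.12, log2 from -0.14 to -0.20). From TC to PC the difference was 0.05 (SE 0.07, adjusted p = 0.65).

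The other 4 genes had few counts. EEF1B2, which encodes the exchange factor itself, ranged from 1.66 to 5.06 CPM in 11 libraries, EEF1D, the delta subunit with exchange activity, from 1.74 to 12.6, EEF2K from 0.0767 to 0.968 and EIF5A from 0.197 to 0.567. At the lowest depth, a count of 3 corresponds to 0.0794 CPM, a limit that covers counting error only. Each of the 4 symbols also appeared in the table with a numbered second entry (EEF1B2_1, EEF1D_1, EEF2K_1 and EIF5A_1), and none of EEF1A1, EEF1A2, EEF1G, EEF2 and EIF5A2 did. Of the 2712 genes with such an entry, 16% had enough counts to be tested, against 40.6% of the 36863 genes without. A single library was at least 10 times above the next in 13 of these 2712 genes (0.479%) and in 5 of the 36863 (0.0136%). How reads that fit both entries were assigned was not stated, so low counts of these 4 genes do not show low expression.

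EEF1B2 had 173 CPM (7486 counts) in PC replicate 3, 34.2 times the next highest library, while PC replicates 1 and 2 had 2.25 and 3.15 CPM. This library set the size of its differences in PC (log2 4.00 against CC, SE 1.25, edgeR adjusted p = 0.013, and 5.08 against TC, SE 1.34, adjusted p = 0.016). Without PC replicate 3, the difference from CC was -0.46 (adjusted p = 0.059), that from TC was 0.62 (adjusted p = 0.049) and that of RC from PC was 0.74 (adjusted p = 0.0060) in place of -3.72 (SE 1.22, adjusted p = 0.017). The call against TC was lost without any 1 TC library (adjusted p from 0.050 to 0.058), and that of RC against PC without RC replicate 1 or RC replicate 3 (0.051 and 0.050). The PC libraries overlapped those of CC and RC. In the other groups EEF1B2 was counted at 3.41, 3.57 and 4.15 CPM (CC), 1.66, 1.87 and 1.73 (TC), and 4.16, 5.06 and 4.33 (RC). All TC libraries were below all CC libraries, with a log2 difference of -1.08 that missed the threshold (SE 1.27, adjusted p = 0.47) and passed it without PC replicate 3 (-1.08, adjusted p = 0.00021) or with only TC and CC fitted (-1.07, adjusted p = 0.0017). In RC, the difference from CC was 0.29 (SE 1.18, adjusted p = 0.88).

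EEF1D was counted at 4.84, 7.95 and 11.8 CPM (CC), 1.81, 3.96 and 2.09 (TC), 3.45, 1.74 and 5.02 (PC), and 2.91, 3.20 and 12.6 (RC). The TC libraries lay below the CC libraries, and RC replicate 3 stood above the other RC libraries. EEF1D fell in TC by 1.65 on the log2 scale (SE 0.59, edgeR adjusted p = 0.026), and leaving out CC replicate 3, TC replicate 1 or TC replicate 3 ended the call (adjusted p from 0.080 to 0.095, log2 from -1.28 to -1.504). In PC the difference from CC was -1.27 (SE 0.58, adjusted p = 0.070), which passed without PC replicate 3 (-1.66, adjusted p = 0.049) or without RC replicate 3 (-1.26, adjusted p = 0.021), and with only PC and CC fitted (-1.26, adjusted p = 0.031). In RC it was -0.39 (SE 0.57, adjusted p = 0.62), and -1.42 (adjusted p = 0.049) without RC replicate 3.

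EEF2K, the kinase of eEF2, had 14, 16 and 18 counts (CC), 4, 3 and 11 (TC), 37, 8 and 5 (PC), and 27, 18 and 34 (RC). In the fit of all 12 libraries it passed no test, with log2 differences from CC of -1.43 in TC (SE 0.74, edgeR adjusted p = 0.10, and 0.032 with only TC and CC fitted), 0.18 in PC (SE 0.67, adjusted p = 0.82) and 0.57 in RC (SE 0.65, adjusted p = 0.53). PC replicate 1 held most of the PC counts, and without it the difference in PC was -1.31 (adjusted p = 0.047), that in TC passed (-1.43, adjusted p = 0.017) and RC was above PC (log2 1.87, adjusted p = 0.0077). The second entry, EEF2K_1, was counted at 6.22, 3.50 and 3.56 CPM (CC), 1.399, 1.53 and 1.96 (TC), 1.26, 2.13 and 2.10 (PC), and 4.43, 10.4 and 7.22 (RC). All TC and PC libraries of this entry were below all CC libraries, and it was lower in TC (log2 -1.43, SE 0.34, adjusted p = 0.0024) and PC (log2 -1.27, SE 0.33, adjusted p = 0.0049) and higher in RC than in PC (log2 2.00, SE 0.34, adjusted p = 0.00019). With both entries summed, the TC difference was -1.44 (SE 0.28, adjusted p = 0.00067) and the PC difference was -1.09 (SE 0.28, adjusted p = 0.0041).

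EIF5A, the widely expressed eIF5A, had 8, 22 and 21 counts (CC), 8, 22 and 29 (TC), 8, 10 and 13 (PC), and 16, 30 and 30 (RC). It passed no test in the fit of all 12 libraries, and only RC and PC did not overlap (log2 1.04, SE 0.45, edgeR adjusted p = 0.055). That difference passed without CC replicate 1 or TC replicate 1 (0.036 and 0.032), with library totals as the scaling (0.048) and with only RC and PC fitted (0.021). The entry EIF5A_1 held more counts, at 13.6, 16.5 and 16.3 CPM (CC), 11.3, 21.5 and 12.8 (TC), 13.9, 14.7 and 22.8 (PC), and 25.6, 32.2 and 109 (RC). RC replicate 3 was 3.39 times the next library, and EIF5A_1 was higher in RC than in CC (log2 1.85, SE 0.47, adjusted p = 0.0089) and than in PC (log2 1.70, SE 0.47, adjusted p = 0.0060). EIF5AL1, a near copy whose coding sequence was 98.9% identical to that of EIF5A over 462 bases with a shared stretch of 192 bases, was counted at 12.98, 14.6 and 16.04 CPM (CC), 9.98, 12.6 and 10.4 (TC), 13.6, 12.1 and 14.2 (PC), and 27.8, 28.4 and 26.0 (RC). Reads of 150 bases from these genes can match both, so their separate values are uncertain. EIF5AL1 fell in TC (log2 -0.40, SE 0.11, adjusted p = 0.0060) and rose in RC (log2 0.91, SE 0.11, adjusted p = 9.6e-05). In RC the sum of EIF5A with its 2 copies was 1.46 above CC (SE 0.31, adjusted p = 0.0031) and 1.45 above PC (SE 0.31, adjusted p = 0.0011). This sum was 53.8, 61.1 and 136 CPM in RC, with replicate 3 highest, against 26.8, 31.6 and 32.7 in CC. The remaining copy entries, EEF1B2_1, EEF1D_1 and the pseudogene EEF1DP3, had at most 14 counts in any library and were not tested, and no copy of EEF1A1 was listed.

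**Figure D4:**
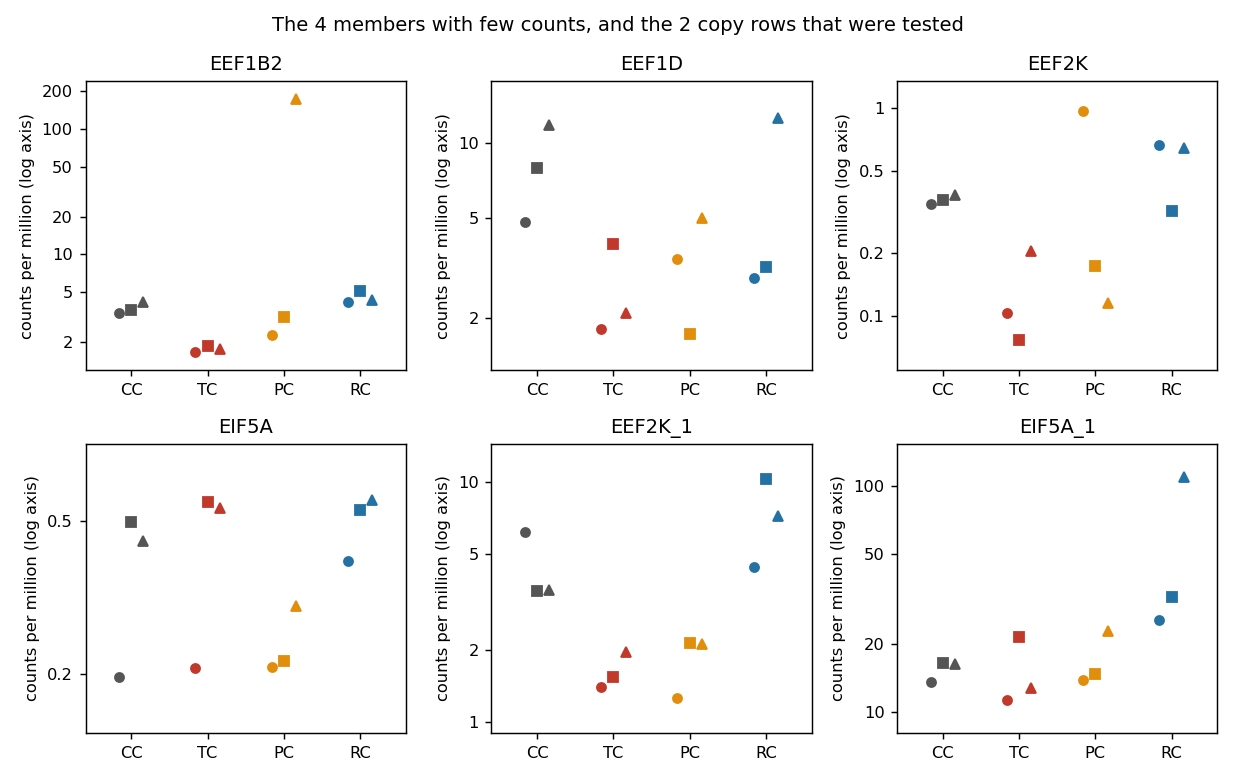
Levels in CPM on log axes for the 4 factor genes with few counts and for the numbered entries EEF2K_1 and EIF5A_1, in each of 12 libraries (circle, square and triangle are replicates 1, 2 and 3). EEF1B2 in PC replicate 3 (173) and EIF5A_1 in RC replicate 3 (109) stand above the other libraries.

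Counted over the 8 tested genes in TC against CC, 1 rose (33.2% of all tested genes did), 4 fell (34.7%) and 2 changed beyond 1.5-fold (35.4%). In PC against CC, 2 were called higher (33.2%), 3 lower (35.9%) and 2 beyond 1.5-fold (37.1%), with EEF1B2 among the higher and among those beyond 1.5-fold. In RC against CC, 0 were called higher by edgeR (18.2%), by DESeq2 or at an unadjusted p under 0.05, 3 lower (19.1%) and 1 beyond 1.5-fold (3.87%). From TC to PC, 2 rose (12.2%), 1 fell (12.5%) and 1 changed beyond 1.5-fold (3.48%). From PC to RC, 2 rose (35.7%), 2 fell (34.2%) and 2 changed beyond 1.5-fold (38.7%). The median log2 difference of the 8 genes was -0.84 in TC, -0.50 in PC and -0.06 in RC relative to CC, against -0.02, -0.04 and 0.00 for all tested genes. The 3 comparisons with CC share the CC libraries and are not independent.

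The other genes of the translation machinery were taken from lists written by hand. Of 77 tested cytosolic ribosomal protein genes, 74 fell and 1 rose in TC (median log2 -0.86), 63 fell and 2 rose in PC (-0.44), and 56 fell and 3 rose in RC (-0.26). RPS26 rose in TC (log2 0.27, SE 0.09, edgeR adjusted p = 0.019). The largest fall was that of RPS2 (log2 -5.33, SE 1.503, adjusted p = 0.0074), which was counted at 118, 3.14 and 69.7 CPM (CC) and at 1.43 to 1.79 in TC. RPS2 was as uneven within PC (2.17 to 86.9 CPM) and within RC (4.51 to 53.3). Among the called genes in RC, the largest fall was that of RPL13A (log2 -0.53, SE 0.05, adjusted p = 3.0e-05). The largest rise was that of RPS10 (log2 1.36, SE 0.38, adjusted p = 0.014), whose mean was 1.05 CPM in RC and 0.404 in CC. It had 45 to 59 counts per library in RC and 7 to 32 in CC. Some other ribosomal protein genes were as low in CC, such as RPL7A (mean 0.771 CPM) and RPS18 (0.734), whereas RPL3 averaged 2535. The handling of multiply aligned reads was not given, so low or uneven counts of such genes do not show low or changed expression.

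Of 9 other genes known to carry a TOP tract, 9 fell in TC (median log2 -0.71), 8 in PC (-0.53) and 8 in RC (-0.39), and none rose in these comparisons. Of all tested genes, 34.7% fell in TC, 35.9% in PC and 19.1% in RC. In TC the log2 differences were -1.87 for HNRNPA1, an RNA-binding protein, -1.03 for EIF3E, -0.98 for RACK1, a ribosome-bound scaffold, -0.83 for EIF4B, -0.71 for NAP1L1, -0.67 for PABPC1, the poly(A)-binding protein, -0.62 for EIF3H, -0.45 for EIF3F and -0.29 for TPT1. Exceptions were TPT1 in PC (log2 -0.11, adjusted p = 0.059) and HNRNPA1 in RC (log2 0.07, adjusted p = 0.59). In TC, PC and RC, the values of EEF2, with the motif at its annotated start, were -0.63, -0.46 and -0.48. Those of EEF1A1, which also holds the motif and whose level chose the gene set, were 0.18, 0.47 and -0.57. For EEF1G, with no match at its annotated start, they were -0.95, -0.53 and -0.27. The motif search matched 47 of 63 ribosomal protein genes, so a missing match does not show that a TOP tract is absent. The part of the tract in these differences was not tested.

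**Figure D5:**
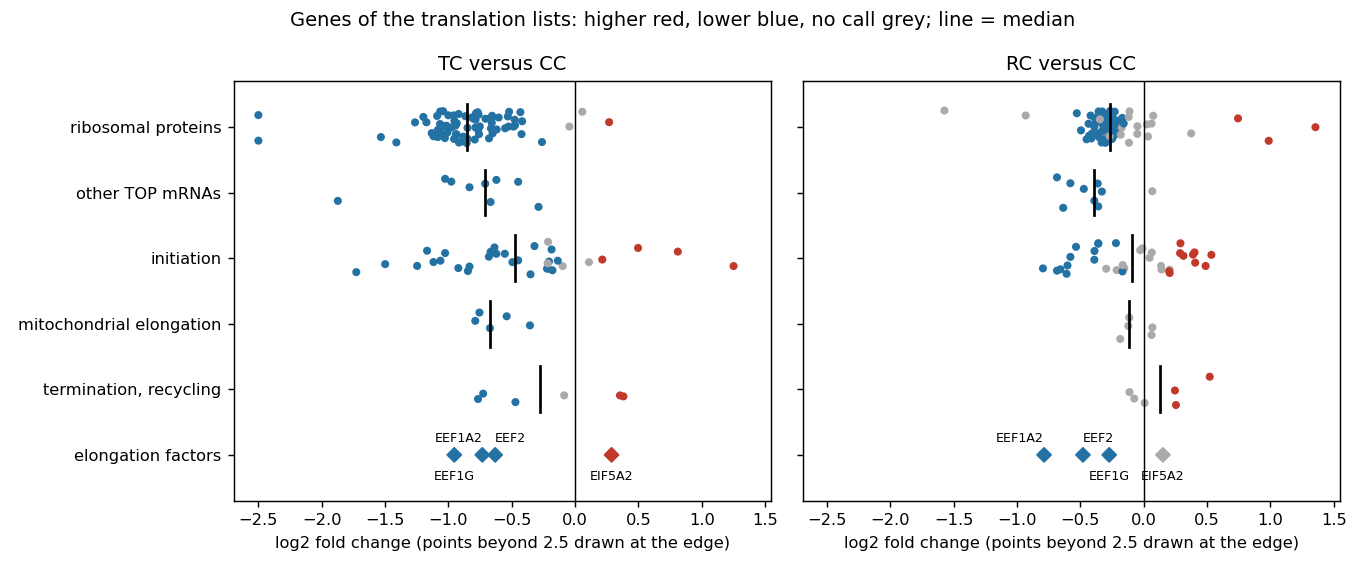
Log2 fold changes of single genes in TC (left) and RC (right) against CC for 5 lists of the translation machinery and for the 4 elongation factor genes EEF1A2, EEF1G, EEF2 and EIF5A2 (diamonds). Red points rose, blue points fell, grey points passed no test, black lines are list medians, and points beyond 2.5 are drawn at the edge. Medians of ribosomal protein genes were -0.86 in TC and -0.26 in RC.

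Of 34 tested initiation factors and their regulators, 25 fell (34.7% of all tested genes did) and 4 rose (33.2%) in TC, with a median log2 of -0.47. In PC, 24 fell (35.9%) and 5 rose (33.2%), with a median of -0.49. In RC, 13 fell (19.1%) and 10 rose (18.2%), with a median of -0.09. EIF3E, EIF3F, EIF3H and EIF4B are also in the TOP list. In TC the largest changes were the fall of EIF4EBP1 (log2 -1.73, SE 0.06, edgeR adjusted p = 3.7e-10) and the rise of EIF4EBP2 (log2 1.25, SE 0.07, adjusted p = 9.0e-09), which encode 2 repressors of the cap-binding protein eIF4E. In RC they were the fall of EIF1 (log2 -0.80, SE 0.08, adjusted p = 5.3e-05), a factor of start codon selection, and the rise of EIF4EBP2 (log2 0.53, SE 0.07, adjusted p = 0.00011).

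All 5 genes listed as mitochondrial elongation factors, among them the recycling factor GFM2, fell in TC (median log2 -0.67) and in PC (-0.87). Of all tested genes, 34.7% fell in TC and 35.9% in PC. All 5 rose from PC to RC (0.93), as did 35.7% of all tested genes. In RC against CC, 0 of 5 passed the edgeR test, where 18.2% of all tested genes were higher and 19.1% lower. TUFM and GFM1, the mitochondrial counterparts of eEF1A and eEF2, differed from CC by -0.36 and -0.79 in TC, by -0.75 and -1.25 in PC and by 0.07 and -0.19 in RC. The values of TSFM, the exchange factor of TUFM, were -0.67, -0.87 and 0.06, those of GFM2, a recycling factor, -0.75, -1.11 and -0.12, and those of GUF1 -0.54, -0.51 and -0.11. In RC against CC, 1 of the 5 (GFM1, log2 -0.19, adjusted p = 0.067) had an unadjusted p under 0.05, and DESeq2 called 0.

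Of 6 termination and recycling factors, 3 fell (34.7% of all tested genes did) and 2 rose (33.2%) in TC. In PC, 3 fell (35.9%) and 1 rose (33.2%), and in RC 3 rose (18.2%). In TC the release factors ETF1 (log2 -0.47) and GSPT1 (-0.77) and the recycling ATPase ABCE1 (-0.73) fell, and GSPT2 (0.38) and the rescue factor PELO (0.35) rose, while HBS1L had a value of -0.09. In RC, ABCE1 (0.25), PELO (0.52) and HBS1L (0.25) rose.

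The enzymes that modify the factors moved in both directions, as did the tested genes as a whole. Of the 2 hypusine enzymes, DHPS, which acts first on eIF5A, fell in TC (log2 -0.91, edgeR adjusted p = 1.3e-06), PC (-1.01) and RC (-0.40), whereas DOHH, which completes hypusine, rose in TC (log2 0.50, adjusted p = 0.00021) and PC (0.50). Of 8 genes for the diphthamide of eEF2 and for eEF2 methylation, 4 rose (33.2% of all tested genes did) and 1 fell (34.7%) in TC. In PC, 5 rose (33.2%) and 2 fell (35.9%). DPH3 had the largest change, with 15.8 CPM in CC, 46.3 in TC (log2 1.55, SE 0.09, adjusted p = 1.8e-08), 60.3 in PC (1.93) and 16.8 in RC (0.09, adjusted p = 0.47). In TC, DPH2 (0.26), DNAJC24 (0.31) and EEF2KMT (0.35) rose and DPH5 (-0.71) fell, while DPH1 (-0.23), DPH6 (-0.05) and DPH7 (0.29) passed no test. In RC, EEF2KMT rose (0.73) and DPH1, DPH5 and DPH7 fell (-0.44, -0.33 and -0.36). Of 5 eEF1A methyltransferases, EEF1AKMT2 fell in TC (log2 -1.09, adjusted p = 4.5e-06) and PC (-0.63), EEF1AKMT4 rose in PC (0.66), and in RC EEF1AKMT3 fell (-0.40) and METTL13, listed as EEF1AKNMT, rose (0.27). EEF1AKMT1 passed no test, with values of 0.48, 0.56 and 0.17 (TC), PC and RC.

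Known regulators of the eEF2 kinase moved in both directions, as did the tested genes as a whole. Of all tested genes, 33.2% rose and 34.7% fell in TC, and 33.2% rose and 35.9% fell in PC. RPS6KB1, which encodes the S6 kinase that inhibits eEF2K, rose in TC (log2 1.17, edgeR adjusted p = 2.4e-08) and PC (0.96) and was at -0.04 in RC. PRKAA2, a catalytic subunit of AMPK, an activator of eEF2K, fell in TC (log2 -1.51, adjusted p = 2.0e-07) and PC (-1.92) and was at -0.01 in RC, while PRKAA1, the other catalytic subunit, fell in PC only among these 3 comparisons (-0.25). MTOR rose in TC (0.44), PC (0.26) and RC (0.38). RPS6KA3 fell in PC (-0.44), and RPS6KA1 was near 0 CPM and not tested. Of the remaining genes with an elongation-related product, EEF1E1 fell in TC (log2 -1.19) and PC (-1.22) and was at -0.21 in RC, VARS1 reached 24.0 CPM in RC replicate 2 against at most 1.98 in the other libraries, and EEFSEC was near 0 CPM.

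By codon content, the coding sequences of the factors were compared with those of 12672 tested genes with a reference transcript. Codons for lysine, glutamate, aspartate and asparagine together made up 25.1% of the EEF1A1 codons, 24.8% of EEF1A2, 24.0% of EEF2, 23.8% of EEF1G, 31.1% of EEF1B2, 26.3% of EEF2K, 27.3% of EIF5A and 27.5% of EIF5A2, and the median over the tested genes was 21.5%. All 9 factor genes were above this median, with EEF1D lowest at 23.5%. The percentage of tested genes with a lower value was 64.5 for EEF1D, 66.8 for EEF1G, 68.2 for EEF2 and 73.9 for EEF1A2. It was 75.6 for EEF1A1, 82.4 for EEF2K, 85.9 for EIF5A, 86.5 for EIF5A2 and 95.1 for EEF1B2. EEF1A1 and EEF1A2 differed in the codon used, since GAA made up 51.9% of the glutamate codons in EEF1A1 and 6.45% in EEF1A2, and GAT 53.8% and 4.55% of the aspartate codons. The corresponding shares were 76.9% and 90.0% in EIF5A2, 25.6% and 61.1% in EEF1G, and 6.45% and 11.5% in EEF2, with medians of 42.2% and 46.7% over the tested genes.

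The genes whose levels were most like those of EEF1A1 over the 12 libraries, by Pearson's r of log2(CPM + 0.5) among 2382 genes with a mean of at least 100 CPM, were ANTXR1 (0.973), ZMAT3 (0.973), URM1 (0.970), FMN2 (0.969) and IFITM3 (0.968). The mean level of ANTXR1 was 236 CPM in CC, 352 in TC, 433 in PC and 143 in RC, and that of IFITM3 was 236, 313, 327 and 134. With EEF1A1, the r was -0.42 for EEF1G, -0.41 for EEF1A2, -0.07 for EEF2 and 0.51 for EIF5A2. These coefficients describe 12 libraries in 4 groups and share the library totals, and no p is given.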

How the data were processed

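RNA-seq was available for 12 libraries. The authors deposited raw read counts per gene, without normalization. Per the labels, reads were handled with fastp 0.20.1, HISAT2 2.2.1 and HTSeq 0.13.5 on GRCh38.p13. Strandedness and the handling of multiply aligned reads are not given in the sources used here.

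Genes, lists and tests were chosen with earlier results of these data known. Every gene was fitted in edgeR 4.0.16 (R 4.3.3; quasi-likelihood model, TMM factors 0.965 to 1.02, 8 residual degrees of freedom), with 1 mean per group. Genes with a mean scaled count of at least 10 were tested (two-sided glmQLFTest, Benjamini-Hochberg adjusted p under 0.05 over 15916 genes; glmTreat for 1.5-fold). SEs were derived from the F statistic. Named were the 9 factors, all genes of lists up to 9 genes, the called genes with the largest rise and fall of longer lists, the 5 genes most like EEF1A1, and copies of factors. On data simulated for TC versus CC over 15916 genes, 154 of 200 genes changed 2-fold were called, and 4 others. No duplicate libraries were found. Transcript lengths and codons are from GENCODE v44. DESeq2 1.42.0, other scalings, filters and blocks, and leaving out each library were alternatives. Results of 1 group of eEF2 kinase regulators are not reported here.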

Additional observations from a re-analysis of the deposited data

How the results depend on the processing

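The calls of EEF1A2, EEF1G and EEF2 at an adjusted p under 0.05 against CC kept their direction and side of the threshold under all 7 alternative fits and all 12 fits without a library. No scaling moved the median of all tested genes by over 0.0293 (log2). DESeq2 gave no adjusted p for EEF1B2 in any comparison, so its counts below leave that gene out. Members called beyond 1.5-fold numbered 2 in TC versus CC (1 with DESeq2, 1 with genes kept at a summed count of at least 2, 3 with only the 2 groups fitted and 3 with copies added to the members), 2 in PC versus CC (1 with DESeq2, 1 with only the 2 groups and 3 with copies added), 1 in RC versus CC (0 with DESeq2, 0 with library totals, 0 with a summed count of at least 2 and 0 with only the 2 groups), 1 in PC versus TC (0 with DESeq2, 0 with library totals and 2 with a summed count of at least 2) and 2 in RC versus PC (0 with DESeq2, 1 with only the 2 groups and 4 with copies added to the members). Members called higher numbered 1 with DESeq2 in PC versus CC and in PC versus TC, in place of 2 each, 1 with only the 2 groups fitted in PC versus TC, and with copies added 1 in RC versus CC in place of 0 and 4 in RC versus PC in place of 2. Members called lower in RC versus PC numbered 1 in place of 2 with DESeq2, with library totals and with a summed count of at least 2, where the EIF5A2 call was lost with the last 2 settings (adjusted p = 0.059 and 0.086) and kept with DESeq2.

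With copies added, the log2 difference of EIF5A was -0.19 in TC versus CC in place of 0.20, 0.012 in PC versus CC in place of -0.65 and 0.20 in PC versus TC in place of -0.85, and that of EEF2K in PC versus CC was -1.09 in place of 0.18. With only the 2 groups fitted, EEF1B2 and EEF2K in TC versus CC (adjusted p = 0.0017 and 0.032), EEF1D in PC versus CC (0.031) and EIF5A in RC versus PC (0.021) passed, and EIF5A also passed with library totals (0.048). With library totals, EEF2 in RC versus PC was at 0.0065 in place of -0.02. No row of an EEF1A1 copy was listed, so that alternative gave no value. On TMM-scaled counts the EEF1A1 shares kept their order.

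Whether same-numbered libraries were paired could not be decided, as weak correlations do not exclude pairing. Deviations from the group means correlated between same-numbered libraries by -0.047 to 0.202 (median 0.029), over 0.1 in 2 of 18 pairs. Between others they correlated by -0.174 to 0.059 (median -0.012), over 0.1 in 0 of 36. With the replicate block, members called higher numbered 1 in PC versus CC and 1 in PC versus TC, members called lower numbered 1 in RC versus PC, and those beyond 1.5-fold numbered 1 in PC versus CC and 1 in RC versus PC. These changes were those of EEF1B2. With the block EEF1D passed in PC versus CC (adjusted p = 0.043) and EIF5A in RC versus PC (0.025), and the EEF2K difference in PC versus CC was -0.0637.

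Leaving out single libraries, members beyond 1.5-fold ranged from 1 to 3 in TC versus CC, 1 to 2 in PC versus CC, 0 to 1 in RC versus CC, 0 to 2 in PC versus TC and 1 to 3 in RC versus PC. Members called higher ranged from 1 to 2 in PC versus CC and 1 to 3 in PC versus TC, and members called lower from 0 to 2 in RC versus PC. Over all genes, 343 to 900 changed beyond 1.5-fold in RC versus CC (616 with all libraries, 343 without RC replicate 2) and 1266 to 2466 were lower in PC versus TC (1992 with all, 1266 without PC replicate 3). The log2 differences that turned sign ranged from -0.10 to 0.53 for EIF5A in TC versus CC, from -0.46 to 4.57 for EEF1B2 and -1.31 to 0.63 for EEF2K in PC versus CC, from -0.016 to 0.80 for EEF1D in PC versus TC, and in RC versus PC from -4.28 to 0.74 for EEF1B2, -0.16 to 1.27 for EEF1D and -0.060 to 1.87 for EEF2K. The cause of these changes was not tested. Depth limits EEF2K and EIF5A, with 3 to 37 counts per library.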
